A study of Homo sapiens with 8 samples.

Results

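The values of 10 stemness genes were followed in RNA-Seq libraries of breast cancer stem cells (CSCs) in which N-cadherin (CDH2) or connexin 43 (Cx43) had been knocked down. The genes were POU5F1, KLF4, MYC, BMI1, SOX4, SOX9, CD44, ALDH1A3, LIN28B and PROCR, chosen by name as pluripotency or breast cancer stem cell genes. Of these 10, 9 were among the 12939 genes of the deposited files, and LIN28B was not analysed here. The CSCs came from MDA-MB-231, a mesenchymal triple-negative breast cancer cell line. All cells carried GFP under the regulatory region of Oct4a, the stem cell isoform of POU5F1, and an RFP vector for a short hairpin RNA (shRNA), and cells with high GFP and RFP were sorted and rested overnight before total RNA was taken. The groups were scramble shRNA with 3 libraries, CDH2 shRNA with 3 libraries and Cx43 shRNA with 2 libraries. Several CDH2 shRNA clones had been compared by Western blot and the most efficient kept, and the methods do not say whether a clone here is an shRNA construct or a line grown from 1 cell. An effect of losing the target and one of the shRNA or the selected line itself cannot be told apart in these libraries. The transcripts of CDH2 itself and of GJA1, the gene of Cx43, were not analysed here. The strength of either knockdown is therefore unknown in these libraries.

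CSCs are the cells of a tumor that renew themselves and can regrow it. POU5F1, KLF4 and MYC belong to the set of transcription factors that can return a differentiated cell to pluripotency. BMI1 is a Polycomb protein that silences genes which would stop self-renewal, and SOX4 and SOX9 are developmental transcription factors linked to mesenchymal change and to mammary stem cells. CD44, a receptor for hyaluronan, and PROCR, the endothelial protein C receptor, are surface proteins by which such cells are sorted. ALDH1A3 is an aldehyde dehydrogenase that makes retinoic acid and contributes to the ALDEFLUOR activity used to find breast CSCs. LIN28B blocks the maturation of let-7 microRNAs. In bulk RNA such as this, fewer cells with a transcript and less of it per cell cannot be told apart.

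No stemness gene passed the test in any comparison. Several sat apart from scramble shRNA in every knockdown library, which may hold for many other genes. MYC was the gene closest to passing, at 1.52-fold of scramble in Cx43 shRNA CSCs (limma, adjusted p = 0.0539 over all genes). SOX4 was the closest in CDH2 shRNA CSCs, at 0.628-fold (limma, adjusted p = 0.0617). Both are folds of CPM + 1. In CPM alone, SOX4 had a mean of 6.31 in CDH2 shRNA and 10.6 in scramble libraries. MYC, BMI1 and SOX9 were above and SOX4 below the range of scramble in all 5 knockdown libraries. ALDH1A3 was above that range in Cx43 shRNA libraries and within or close to it in CDH2 shRNA libraries. Of all genes, 51.9% did not overlap scramble in CDH2 shRNA and 52.8% in Cx43 shRNA libraries. The share of all genes outside scramble in all 5 was not computed, so whether the members stood out in this is unknown. POU5F1, KLF4, CD44 and PROCR differed from scramble by at most 0.19 on the log2 scale in either knockdown.

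The windows below are the 250 bases before the start of BMI1, KLF4 and SOX4 from RefSeq (GRCh38.p14), shown because BMI1 lay above scramble in the same 5 libraries as MYC, KLF4 overlapped scramble in both knockdowns, and SOX4 had the largest difference of all members. Capitals mark CACGTG, the E-box to which MYC and its partner MAX bind, which reads the same on both strands. The BMI1 window is chr10:22320849-22321098 on the plus strand, the KLF4 window chr9:107489770-107490019 on the minus strand and the SOX4 window chr6:21593501-21593750 on the plus strand. Each is written in the direction of transcription. The RefSeq start of KLF4 lies within the span of the gene given below, which is from GENCODE. The same holds for CD44 and ALDH1A3, whose windows were searched as well, so these windows lie inside those spans.
BMI1: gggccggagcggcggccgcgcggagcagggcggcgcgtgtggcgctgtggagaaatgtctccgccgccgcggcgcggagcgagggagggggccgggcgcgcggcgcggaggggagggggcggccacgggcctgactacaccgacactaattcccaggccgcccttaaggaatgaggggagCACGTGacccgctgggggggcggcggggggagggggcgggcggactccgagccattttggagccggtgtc
KLF4: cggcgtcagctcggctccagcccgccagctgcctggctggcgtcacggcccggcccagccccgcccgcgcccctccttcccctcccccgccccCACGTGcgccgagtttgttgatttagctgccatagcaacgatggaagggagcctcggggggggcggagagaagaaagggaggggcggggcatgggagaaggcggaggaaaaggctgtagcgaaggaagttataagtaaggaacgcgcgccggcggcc
SOX4: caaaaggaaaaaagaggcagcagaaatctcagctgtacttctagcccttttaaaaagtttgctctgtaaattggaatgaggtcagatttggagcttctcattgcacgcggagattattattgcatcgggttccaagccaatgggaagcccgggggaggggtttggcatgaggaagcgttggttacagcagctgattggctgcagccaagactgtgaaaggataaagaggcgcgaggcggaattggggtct

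An E-box began at position -70 before BMI1 and at position -157 before KLF4, and the SOX4 window held none. The windows of CD44 and ALDH1A3 held no E-box either. Of 35116 promoter windows of the same length in RefSeq, 6.34% held this motif. A second motif, CACCC or its complement GGGTG, to which KLF factors bind, was found in the windows of CD44 (2 matches) and ALDH1A3 (3 matches) and in none of the windows printed above. A window at another start of BMI1 held 1 match, at position -185. It was present in 54.7% of all windows. The octamer of POU factors is ATGCAAAT, or ATTTGCAT on the other strand. It was in none of the windows examined, which covered 6 analysed members, and in 1.63% of all windows. PROCR held none of these motifs. No window of POU5F1, MYC or SOX9 was examined. These are matches of letters, and no binding was measured.

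The levels of the members relative to each other were set first, per kilobase of transcript (lengths from GENCODE v44). Per kilobase, CD44 was highest in scramble shRNA CSCs, at 72.3 ± 3.05 CPM (SD, n = 3), followed by MYC at 39.8 ± 0.875 and PROCR at 31.6 ± 4.35. KLF4 stood at 19.8 ± 1.56 CPM per kilobase, POU5F1 at 9.39 ± 0.0866, BMI1 at 8.45 ± 0.339 and SOX9 at 8.43 ± 0.756. The 2 lowest were SOX4 at 2.18 ± 0.262 and ALDH1A3 at 1.21 ± 0.0100. Neighbors in this order did not overlap between scramble libraries, except BMI1 and SOX9. Among all genes of the files, ranked on log2(CPM + 1) without regard to length, CD44 was at the 98.7th percentile of scramble values, MYC at the 93.6th, POU5F1 at the 32.1st and ALDH1A3 at the 9.92nd. CD44 is thus among the most abundant transcripts of these cells, and POU5F1 lies in the lower part of the genes that passed the authors' filter.

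**Figure D1:**
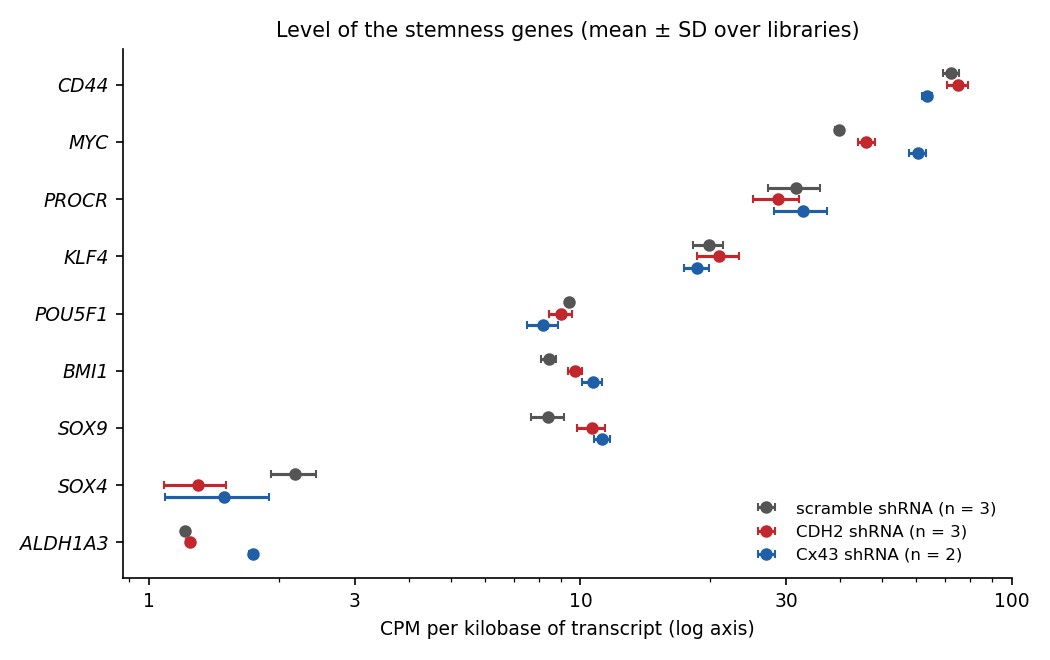
Level of each analysed stemness gene in CPM per kilobase of transcript on a log axis, as the mean and SD over the libraries of each shRNA group. CD44 is highest at 72.3 in scramble and ALDH1A3 lowest at 1.21, and the SDs of MYC do not overlap between the 3 groups.

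The label of the cells was checked on markers. All 8 markers of MDA-MB-231 on the list were present, with a summed level of 3146 to 3243 CPM in scramble, 3213 to 3395 in CDH2 shRNA and 3255 to 3461 in Cx43 shRNA libraries. Of 8 markers that should be low or absent in this line, 2 were in the files, EPCAM and the receptor gene ERBB2, and they summed to 41.6 to 46.8 CPM in scramble, 38.7 to 42.8 in CDH2 shRNA and 46.6 to 50.8 in Cx43 shRNA libraries. These 2 were thus low but not absent, and the other 6 were not analysed. Of 8 markers of pluripotent cells, POU5F1 alone was analysed, so the reporter-sorted cells were not described here by NANOG, SOX2 or LIN28A. Of 8 stromal fibroblast markers, 2 were analysed (COL1A1 and PDGFRB), of 6 leukocyte markers 1 (CD68) and of 5 endothelial markers 1 (PECAM1). The stromal pair summed to 53.7 to 66.3 CPM in scramble, 40.4 to 52.6 in CDH2 shRNA and 29.6 to 40.2 in Cx43 shRNA libraries. This sum was lower in every knockdown library than in scramble. The pair differed in CDH2 shRNA, where COL1A1 overlapped scramble (log2(CPM + 1) of 3.73 to 4.33 against 3.66 to 3.94). PDGFRB was below it there (4.81 to 5.10 against 5.43 to 5.73), and both genes were below it in Cx43 shRNA libraries. The part of these markers in the results below was not tested.

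CDH2 shRNA was compared with scramble shRNA to ask which transcripts differed between these groups. The test was limma on the deposited log2(CPM + 1) of all 8 libraries, with the replicate number as a block and p-values adjusted by Benjamini-Hochberg over all genes. A gene passed at an adjusted p under 0.05. In this comparison 14.3% of all genes passed, 7.29% higher and 6.98% lower, and 0 of 9 stemness genes did. At an unadjusted p under 0.05 there were 3 (SOX4, SOX9 and MYC), where 37.5% of all genes were under it. Every CDH2 shRNA library lay outside the range of scramble for 4 members, MYC, BMI1 and SOX9 above and SOX4 below, and for 51.9% of all genes. The share among the members was close to that of all genes. The median log2 fold change of the 9 members was 0.05, against 0.01 for all genes. Calls over all genes depended on single libraries. Without CDH2 shRNA replicate 1 or 2, or without either Cx43 shRNA library, 0 genes passed in CDH2 shRNA versus scramble, and without scramble replicate 1 there were 10, so each pathway gene reported below as changed in CDH2 shRNA is a call of the full set of libraries. With only the scramble and CDH2 shRNA libraries in the fit, 0 genes passed as well. Counts in the lists below are to be read against the 14.3% of all genes, and the shares among the partners of MYC, its targets and the genes of Polycomb repressive complex 1 were close to it. This does not set the other lists apart, since no list was tested against that share and single genes move it in lists this small.

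Cx43 shRNA, which targets the gap junction protein, was compared with scramble shRNA in the same way. Of all genes 1.21% passed, 0.417% higher and 0.788% lower, and again 0 of 9 members. At an unadjusted p under 0.05 there were 4 (MYC, ALDH1A3, BMI1 and SOX9), where 21.6% of all genes were under it. Both Cx43 shRNA libraries lay outside the scramble range for 7 members, 4 above and 3 below, against 52.8% of all genes. MYC, BMI1, SOX9 and ALDH1A3 were above, and POU5F1, SOX4 and CD44 below. The median log2 fold change was 0.05 for the members and 0.04 for all genes. Here 0 genes passed without CDH2 shRNA replicate 2 or without either Cx43 shRNA library, 1 without scramble replicate 1 and 5 without CDH2 shRNA replicate 1.

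The knockdowns were then compared with each other. Of all genes 0.0% passed, and 0 of 9 members did. At an unadjusted p under 0.05 there were 2 members (MYC and ALDH1A3), both lower in CDH2 shRNA than in Cx43 shRNA CSCs, where 20.0% of all genes were under it. The libraries of the knockdowns did not overlap for 4 members (CD44 higher in CDH2 shRNA, MYC, BMI1 and ALDH1A3 lower) and for 50.8% of all genes. Both comparisons with scramble use the same 3 scramble libraries.

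The block decides these counts. Without a replicate block, 4 members passed in CDH2 shRNA versus scramble (MYC, BMI1, SOX4 and SOX9), 4 in Cx43 shRNA versus scramble (MYC, BMI1, SOX9 and ALDH1A3) and 3 between the knockdowns (MYC, CD44 and ALDH1A3). In that fit 43.3%, 24.3% and 21.5% of all genes passed. Because the authors had already removed the differences between sequencing replicates, the fit without the block counts degrees of freedom that the values no longer have.

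**Figure D2:**
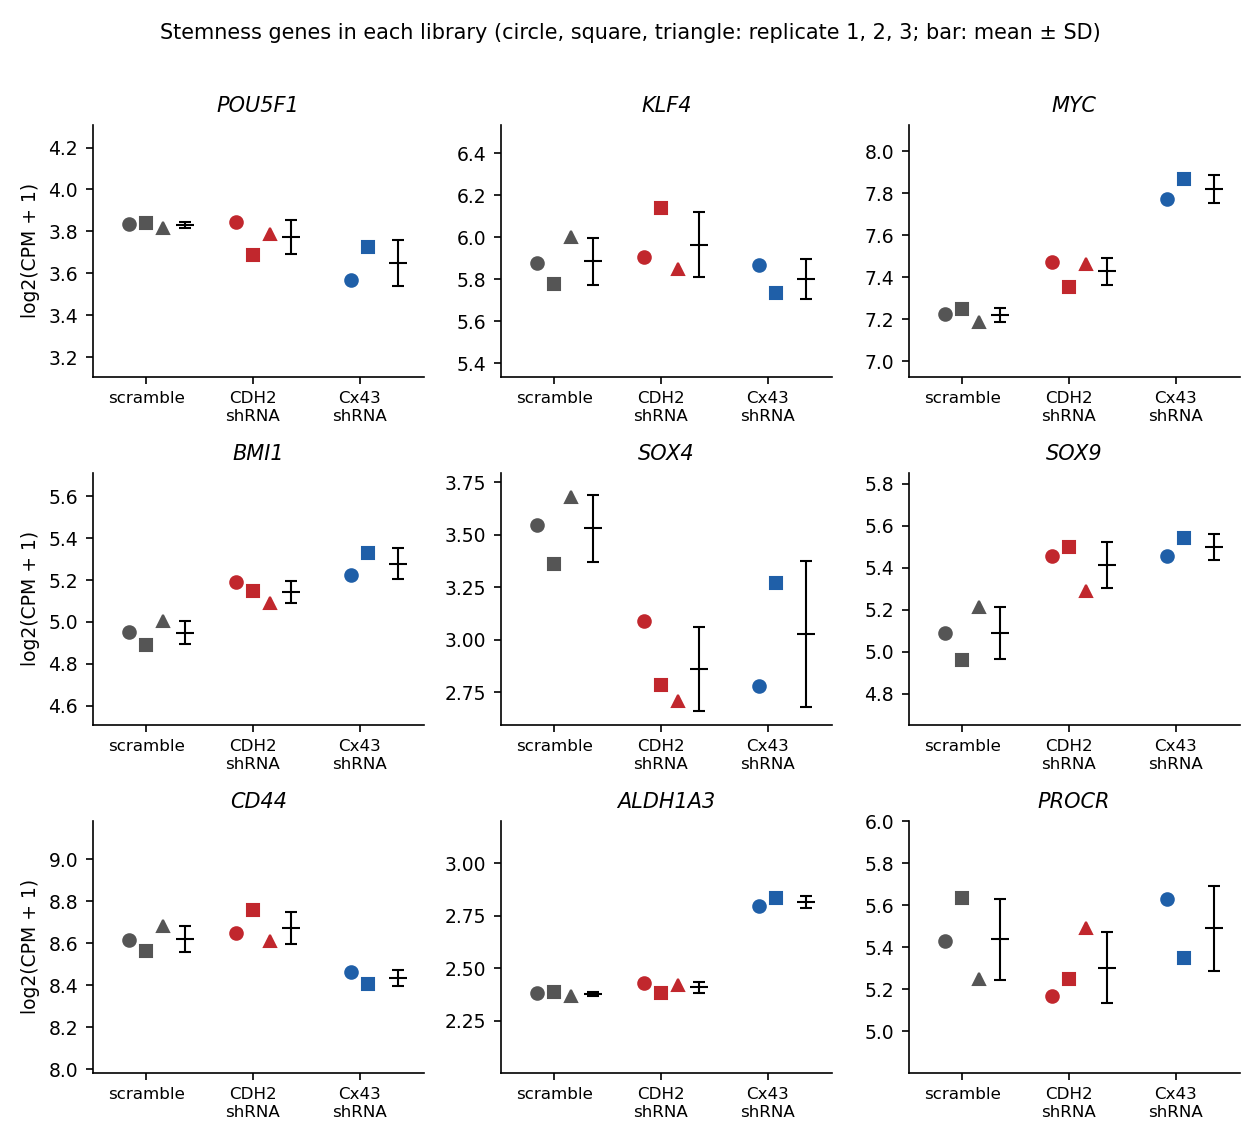
Deposited log2(CPM + 1) of each analysed stemness gene in all 8 libraries, with the mean and SD of each group beside the points and the same span of values in every panel. MYC lies between 7.19 and 7.25 in scramble, 7.35 and 7.47 in CDH2 shRNA and 7.77 and 7.87 in Cx43 shRNA libraries, and ALDH1A3 is apart in the 2 Cx43 shRNA libraries alone.

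POU5F1 encodes Oct4, the factor whose regulatory region drove the GFP used for sorting, and lies at chr6:31164337-31180731 on the minus strand (hg38). Its log2(CPM + 1) was 3.84, 3.84 and 3.82 in scramble replicates 1, 2 and 3, 3.85, 3.69 and 3.79 in CDH2 shRNA replicates 1, 2 and 3, and 3.57 and 3.73 in Cx43 shRNA replicates 1 and 2. Scramble libraries were nearly alike, the CDH2 shRNA values reached into their range and both Cx43 shRNA values were below it. The log2 fold change was -0.06 with a 95% interval of -0.27 to 0.16 for CDH2 shRNA and -0.18 with an interval of -0.44 to 0.07 for Cx43 shRNA, with adjusted p of 0.669 and 0.363. Without Cx43 shRNA replicate 1 or 2 the latter was -0.0645 or -0.2993. As every group was sorted on the reporter of this gene, an effect of the gate and one of the knockdowns on these values cannot be told apart. When the relation of each library to transcript length and GC content was removed, the value for CDH2 shRNA turned to 0.20 (adjusted p = 0.247), an alternative added after the values had been seen. Reads that POU5F1 shares with its near-identical pseudogenes may have been split between them, and those were not analysed here. Values per gene also do not separate Oct4a from other isoforms of POU5F1.

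The genes with the pattern most like that of POU5F1 over the 8 libraries were UBE2B, a ubiquitin-conjugating enzyme (Pearson r of 0.99), GRAMD1A, a cholesterol transfer protein of the endoplasmic reticulum (0.99), and the antisense transcript UBA6-AS1 (0.98). They were picked as the 3 highest of all genes, and the 8 points share 3 groups.

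The list of the pluripotency circuit held 20 other genes, of which 6 were analysed. In CDH2 shRNA versus scramble 2 rose and 0 fell. KLF5, a factor that can stand in for KLF4 in stem cells, was 4.51, 4.45 and 4.59 in scramble and 5.05, 5.18 and 5.01 in CDH2 shRNA libraries, a log2 fold change of 0.56 ± 0.0904 (SE, adjusted p = 0.0248). DNMT3B, a de novo DNA methyltransferase of early embryonic cells, rose by 0.39 ± 0.0962 (adjusted p = 0.0499). The list median was 0.23 in CDH2 shRNA and 0.13 in Cx43 shRNA, where 0 of 6 passed and STAT3 and KLF5 had the highest levels, at 0.05 and 0.30. After length and GC content were removed, KLF5 alone passed in CDH2 shRNA.

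KLF4, at chr9:107484852-107490482 on the minus strand, is a zinc finger factor that in breast tissue both restrains and favors growth. Values of log2(CPM + 1) were 5.88, 5.78 and 6.0 in scramble, 5.90, 6.14 and 5.85 in CDH2 shRNA and 5.87 and 5.73 in Cx43 shRNA libraries. All groups overlapped. As a log2 fold change this was 0.08 (interval -0.21 to 0.37) for CDH2 shRNA and -0.09 (interval -0.43 to 0.26) for Cx43 shRNA. Differences of this size cannot be told from 0 with these libraries, and neither can larger ones within the intervals. Of 11 other KLF genes analysed, 1 rose in CDH2 shRNA (KLF5) and 0 passed in Cx43 shRNA, where the 2 with the highest levels were KLF10 (-0.46, adjusted p = 0.179) and KLF6 (0.31, adjusted p = 0.352).

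MYC, a factor that drives growth and ribosome production, is encoded at chr8:127735434-127742951 on the plus strand. Its log2(CPM + 1) was 7.22, 7.25 and 7.19 in scramble, 7.47, 7.35 and 7.46 in CDH2 shRNA and 7.77 and 7.87 in Cx43 shRNA libraries. The groups did not overlap, and every Cx43 shRNA library was above every CDH2 shRNA library. In CPM these are means of 148 ± 3.26, 171 ± 7.76 and 225 ± 10.3 (SD, n = 3, 3 and 2). The log2 fold change for Cx43 shRNA was 0.60 ± 0.0953 (SE), with an interval of 0.37 to 0.83, and it placed MYC at rank 198 of all genes by p. For CDH2 shRNA it was 0.21 ± 0.0813 (interval 0.01 to 0.41, adjusted p = 0.124). The direct difference, CDH2 shRNA minus Cx43 shRNA, was -0.39 ± 0.0953 with an adjusted p of 0.146. Over the alternatives the value for Cx43 shRNA kept its sign, from 0.53 to 0.67, with adjusted p from 0.000689 to 0.496. It passed without scramble replicate 2 (0.0365), without scramble replicate 3 or CDH2 shRNA replicate 3 (0.00587) and with length and GC content removed (0.0478). In these fits 3.62%, 16.5% and 4.19% of all genes passed, against 1.21% with all libraries.

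Of 15 partners and regulators of MYC analysed, 1 rose and 1 fell in CDH2 shRNA, where 14.3% of all genes passed. MXD4, which competes with MYC for MAX, was 4.63, 4.47 and 4.76 in scramble, 4.07, 3.88 and 3.77 in CDH2 shRNA and 4.55 and 4.90 in Cx43 shRNA libraries. In CDH2 shRNA it fell by 0.71 on the log2 scale (SE 0.148, adjusted p = 0.0370), and its Cx43 shRNA values overlapped scramble. TRRAP, a scaffold by which MYC recruits histone acetyltransferases, rose by 0.54 ± 0.120 in CDH2 shRNA (adjusted p = 0.0415). TRRAP but not MXD4 also passed once length and GC content were removed. In Cx43 shRNA 0 of 15 passed, and HUWE1 and TRRAP, the partners with the highest levels, were at -0.75 (adjusted p = 0.179) and -0.05 (adjusted p = 0.856).

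All 20 target genes of MYC on the list were analysed, most of them genes of ribosome and nucleotide production. In CDH2 shRNA 3 rose and 0 fell, 16 were above 0, and the median log2 fold change was 0.18 against 0.01 for all genes. CAD, the enzyme that begins pyrimidine synthesis, rose by 0.56 ± 0.110 (adjusted p = 0.0339), NOLC1, a nucleolar chaperone, by 0.51 ± 0.0845 (adjusted p = 0.0253), and POLR1B, a subunit of RNA polymerase I, by 0.49 ± 0.108 (adjusted p = 0.0409). In Cx43 shRNA 0 of 20 passed, 19 were above 0, and the median was 0.23 against 0.04 for all genes. With length and GC content removed the medians were 0.24 and 0.20, with 3 (SRM, CAD and NOLC1) and 1 (NOLC1) passing, so that POLR1B no longer passed. Of the genes with the highest levels, LDHA, which turns pyruvate to lactate, was at 0.16 (adjusted p = 0.568) and NCL, the main protein of the nucleolus, at 0.21 (adjusted p = 0.402) in Cx43 shRNA.

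BMI1, a subunit of Polycomb repressive complex 1, lies at chr10:22321099-22331484 on the plus strand. The log2(CPM + 1) of BMI1 was 4.95, 4.89 and 5.00 in scramble, 5.19, 5.15 and 5.09 in CDH2 shRNA and 5.22 and 5.33 in Cx43 shRNA libraries. Every knockdown library was above every scramble library, and every Cx43 shRNA library above every CDH2 shRNA library. The log2 fold change was 0.19 ± 0.0829 (SE, adjusted p = 0.147) for CDH2 shRNA and 0.33 ± 0.0972 (adjusted p = 0.144) for Cx43 shRNA. Removing length and GC content gave 0.07 (adjusted p = 0.468) and 0.21 (adjusted p = 0.136). BMI1 overlaps the readthrough gene COMMD3-BMI1, whose values of 1.94, 1.69 and 2.19 in scramble, 1.82, 2.02 and 1.55 in CDH2 shRNA and 2.23 and 2.26 in Cx43 shRNA libraries were far lower. How the authors' counting split shared reads between them cannot be seen from the values. The level of BMI1 is uncertain for that reason, by an unknown amount.

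The other 20 genes of Polycomb repressive complex 1 were all analysed. In CDH2 shRNA 2 rose and 1 fell, where 14.3% of all genes passed, and 0 passed in Cx43 shRNA, with medians of 0.12 and 0.18. BCOR, a corepressor of a variant of the complex, rose by 0.51 ± 0.122 (adjusted p = 0.0484), PCGF6, which takes the place of BMI1 in another variant, by 0.38 ± 0.0868 (adjusted p = 0.0430), and RING1, a ubiquitin ligase of the complex, fell by 0.33 (SE 0.0804, adjusted p = 0.0493). BCOR and PCGF6 passed in CDH2 shRNA with length and GC content removed and RING1 did not, and CBX2 passed in Cx43 shRNA. In Cx43 shRNA the highest of the list, CBX6 and PHC2, were at 0.27 (adjusted p = 0.169) and 0.02 (adjusted p = 0.945). Of 11 genes of Polycomb repressive complex 2, which writes the mark that the first complex reads, 1 fell in CDH2 shRNA and 0 rose. This was PHF1, an accessory subunit, at 5.04, 5.03 and 5.04 in scramble and 4.54, 4.48 and 4.51 in CDH2 shRNA libraries (-0.53 ± 0.0737, adjusted p = 0.0209). Both catalytic subunits, EZH1 and EZH2, were at 0.02 and 0.05 in CDH2 shRNA (adjusted p of 0.864 and 0.712).

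SOX4, a gene of 1 exon at chr6:21593751-21598619 on the plus strand, encodes a factor downstream of TGF-beta in mesenchymal change. Its log2(CPM + 1) was 3.55, 3.36 and 3.68 in scramble, 3.09, 2.78 and 2.71 in CDH2 shRNA and 2.78 and 3.27 in Cx43 shRNA libraries. All 5 knockdown libraries were below scramble, but the Cx43 shRNA libraries were apart from each other by more than the scramble libraries. Means in CPM were 10.6 ± 1.28 in scramble, 6.31 ± 1.05 in CDH2 shRNA and 7.27 ± 1.97 in Cx43 shRNA CSCs. The log2 fold change for CDH2 shRNA was -0.67 ± 0.183 (SE), the largest of any member, and its interval ran from -1.12 to -0.22. For Cx43 shRNA it was -0.50 ± 0.215 (adjusted p = 0.249). Leaving out 1 library gave values from -0.85 to -0.52 for CDH2 shRNA, and it passed without scramble replicate 2 (adjusted p = 0.00726) and without scramble replicate 3 or CDH2 shRNA replicate 3 (0.0234), where 12.1% and 41% of all genes passed. For Cx43 shRNA it was -0.14 without replicate 1 and -0.87 without replicate 2 of that group. SOX4 also passed in CDH2 shRNA with length and GC content removed (-0.80, adjusted p = 0.0474).

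SOX9, a factor of mammary luminal progenitors and of cartilage, lies at chr17:72121020-72126416 on the plus strand. On the log2(CPM + 1) scale it was 5.09, 4.96 and 5.21 in scramble, 5.46, 5.50 and 5.29 in CDH2 shRNA and 5.45 and 5.54 in Cx43 shRNA libraries. It was above scramble in all 5 knockdown libraries, opposite to SOX4, with the smallest gap between scramble replicate 3 and CDH2 shRNA replicate 3. Through the removed batch effect these 2 libraries mirror each other about their group means in every gene. SOX9 had a log2 fold change of 0.32 ± 0.108 (SE, adjusted p = 0.0899) for CDH2 shRNA and 0.41 ± 0.127 (adjusted p = 0.153) for Cx43 shRNA. Without either of these 2 libraries SOX9 passed in both (0.45 with an adjusted p of 0.00963 and 0.47 with 0.0171), in fits where 41% and 16.5% of all genes passed. Of 16 other SOX genes 3 were analysed. SOX12, a relative of SOX4 in the same subgroup, was 4.82, 4.79 and 4.85 in scramble, 4.30, 4.36 and 4.29 in CDH2 shRNA and 4.68 and 4.65 in Cx43 shRNA libraries. In CDH2 shRNA it fell by 0.50 on the log2 scale (SE 0.0733, adjusted p = 0.0215) and also passed with length and GC content removed. In Cx43 shRNA it was at -0.16 (adjusted p = 0.346).

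**Figure D3:**
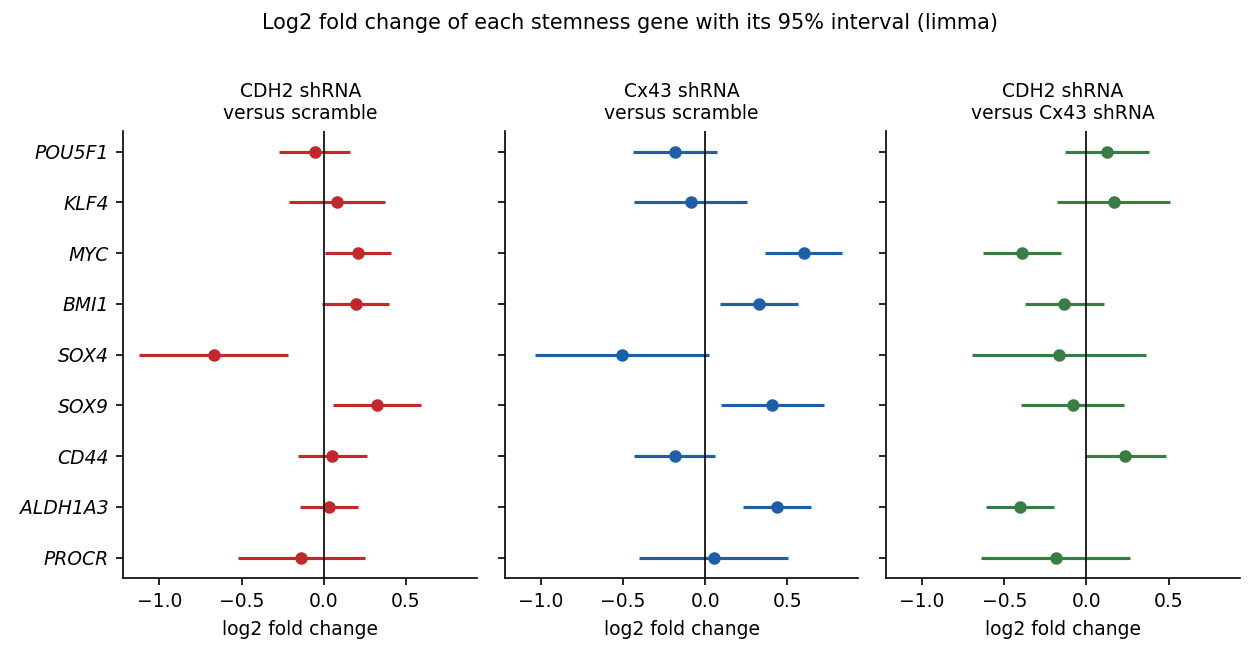
Log2 fold change of each analysed stemness gene in the 3 comparisons, with the 95% interval of the limma fit and a line at 0. The interval for MYC in Cx43 shRNA versus scramble runs from 0.37 to 0.83 and that for SOX4 in CDH2 shRNA versus scramble from -1.12 to -0.22, and none of the members passed after adjustment over all genes.

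CD44 lies at chr11:35138882-35232402 on the plus strand. The deposited values were 8.62, 8.56 and 8.68 in scramble, 8.65, 8.76 and 8.61 in CDH2 shRNA and 8.46 and 8.41 in Cx43 shRNA libraries. CDH2 shRNA overlapped scramble, and both Cx43 shRNA libraries were below every other library. CDH2 shRNA minus scramble was 0.05 on the log2 scale (interval -0.16 to 0.26), and Cx43 shRNA minus scramble was -0.19 (interval -0.43 to 0.06, adjusted p = 0.340). With length and GC content removed the value for CDH2 shRNA turned to -0.16 (adjusted p = 0.117) and that for Cx43 shRNA was -0.30 (adjusted p = 0.0701). CD44 is spliced into many forms, which values per gene do not separate.

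Of 17 ligand enzymes, splicing factors and linkers of CD44 analysed, 3 rose and 1 fell in CDH2 shRNA. HAS3, which makes hyaluronan, was 1.77, 1.79 and 1.77 in scramble, 2.24, 2.44 and 2.34 in CDH2 shRNA and 1.68 and 1.46 in Cx43 shRNA libraries, and rose by 0.56 ± 0.101 in CDH2 shRNA (adjusted p = 0.0293). NF2, whose product merlin binds the tail of CD44 and restrains growth, rose by 0.54 ± 0.0785 (adjusted p = 0.0215), and HMMR, a second hyaluronan receptor, by 0.34 ± 0.0716 (adjusted p = 0.0371). HYAL3, of the hyaluronidase family, fell by 0.36 (adjusted p = 0.0407). HAS3, NF2 and HMMR passed with length and GC content removed, and HYAL3 did not. In Cx43 shRNA 0 of 17 passed, and MSN and EZR, which link CD44 to actin, were at 0.48 (adjusted p = 0.122) and -0.12 (adjusted p = 0.583).

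Among other surface markers used to sort breast CSCs, 11 of 18 were analysed, and in CDH2 shRNA 3 fell and 0 rose. CD151, a tetraspanin that binds laminin-binding integrins, was 7.59, 7.66 and 7.54 in scramble and 6.97, 7.10 and 7.12 in CDH2 shRNA libraries (-0.53 ± 0.0981, adjusted p = 0.0309). CD9, another tetraspanin, fell by 0.42 (SE 0.0912, adjusted p = 0.0395) and EPCAM, an epithelial adhesion protein, by 0.37 (SE 0.0745, adjusted p = 0.0349). The list median was -0.25 in CDH2 shRNA and -0.04 in Cx43 shRNA, where 0 of 11 passed and ITGB1 and NT5E, the markers with the highest values, were at -0.04 (adjusted p = 0.922) and 0.05 (adjusted p = 0.858). With length and GC content removed, EPCAM still fell in CDH2 shRNA, CD151 and CD9 no longer passed, and CD47 and CD59 did. CD24, whose low level or absence on cells with CD44 marks breast CSCs, was singled out after its values were seen. It was 5.33, 5.31 and 5.39 in scramble, 4.91, 5.21 and 4.99 in CDH2 shRNA and 4.56 and 4.28 in Cx43 shRNA libraries. All 5 knockdown values were below scramble. The difference from scramble was -0.31 (adjusted p = 0.129) in CDH2 shRNA and -0.92 (adjusted p = 0.0532) in Cx43 shRNA on the log2 scale, and with length and GC content removed CD24 passed in Cx43 shRNA.

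PROCR lies at chr20:35172072-35216240 on the plus strand. The deposited values of PROCR were 5.43, 5.64 and 5.25 in scramble, 5.17, 5.25 and 5.49 in CDH2 shRNA and 5.63 and 5.35 in Cx43 shRNA libraries. The scramble libraries alone covered almost the whole range, and the groups overlapped. Its log2 fold change was -0.14 (interval -0.52 to 0.25) for CDH2 shRNA and 0.05 (interval -0.40 to 0.50) for Cx43 shRNA, and both changed sign under some alternatives. Of 8 genes of the protein C pathway analysed, 0 passed in either knockdown. F3, the tissue factor that starts coagulation and the one with the highest values, was at 0.15 (adjusted p = 0.378) in CDH2 shRNA and 0.05 (adjusted p = 0.872) in Cx43 shRNA.

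ALDH1A3 lies at chr15:100877714-100916626 on the plus strand. Its log2(CPM + 1) was 2.38, 2.39 and 2.37 in scramble, 2.43, 2.38 and 2.42 in CDH2 shRNA and 2.80 and 2.84 in Cx43 shRNA libraries. The Cx43 shRNA libraries stood apart from the other 6, which differed by at most 0.06. In CPM the means were 4.20 ± 0.0348, 4.32 ± 0.0936 and 6.05 ± 0.141. The log2 fold change for Cx43 shRNA was 0.44 ± 0.0842 (SE, adjusted p = 0.0737) and that for CDH2 shRNA 0.03 ± 0.0718 (interval -0.15 to 0.21). The direct difference, CDH2 shRNA minus Cx43 shRNA, was -0.41 ± 0.0842 with an adjusted p of 0.126. ALDH1A3 passed in Cx43 shRNA without scramble replicate 3 or CDH2 shRNA replicate 3 (adjusted p = 0.0221), at nearly the same value of 0.43, where 16.5% of all genes passed. As a transcript at the low end of the files, its change on the log2(CPM + 1) scale is smaller than on the CPM scale.

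Of 11 other aldehyde dehydrogenases analysed, 2 rose and 0 fell in CDH2 shRNA, where 14.3% of all genes passed. ALDH5A1, which breaks down the GABA product succinic semialdehyde, was 3.02, 2.91 and 3.13 in scramble, 3.56, 3.61 and 3.43 in CDH2 shRNA and 3.69 and 3.74 in Cx43 shRNA libraries. It rose by 0.51 ± 0.0991 in CDH2 shRNA (adjusted p = 0.0334) and was at 0.69 in Cx43 shRNA (adjusted p = 0.0584). ALDH1B1, a mitochondrial enzyme, rose by 0.39 ± 0.0754 in CDH2 shRNA (adjusted p = 0.0339). Once length and GC content were removed 2 rose and 2 fell in CDH2 shRNA (ALDH2 and ALDH3A2 lower), and 2 rose in Cx43 shRNA (ALDH5A1 and ALDH16A1). The list median was -0.09 in CDH2 shRNA and 0.12 in Cx43 shRNA, where 0 of 11 passed and those with the highest values, ALDH18A1 and ALDH1B1, were at 0.25 (adjusted p = 0.257) and 0.33 (adjusted p = 0.122).

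The genes that take up, bind and clear retinoic acid, the product of ALDH1A3, held the largest changes that passed the test in any list. Of 11 analysed, 1 rose and 3 fell in CDH2 shRNA, and 1 fell in Cx43 shRNA. STRA6, the membrane receptor that takes up retinol, was 3.15, 3.06 and 3.22 in scramble, 2.39, 2.27 and 2.22 in CDH2 shRNA and 2.0 and 2.21 in Cx43 shRNA libraries. It fell by 0.85 in CDH2 shRNA (SE 0.102, adjusted p = 0.0199) and by 1.04 in Cx43 shRNA (SE 0.120, adjusted p = 0.0354), and it was the one gene of all lists that passed in both. RARRES3, a phospholipase induced by retinoic acid, was 3.80, 3.95 and 3.66 in scramble, 2.71, 2.64 and 2.89 in CDH2 shRNA and 3.09 and 3.02 in Cx43 shRNA libraries. It fell by 1.06 in CDH2 shRNA (SE 0.118, adjusted p = 0.0186) and was at -0.75 in Cx43 shRNA (adjusted p = 0.0680). CYP26B1, which degrades retinoic acid, rose by 0.40 ± 0.0783 in CDH2 shRNA (adjusted p = 0.0339), and RARG, a retinoic acid receptor, fell by 0.34 (SE 0.0774, adjusted p = 0.0417). With length and GC content removed, STRA6 passed in both knockdowns and CYP26B1 in CDH2 shRNA, RARG no longer passed and RDH10 did. RARRES3 had no length and was not in that fit.

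LIN28B, at chr6:104936616-105083332, was not analysed here. Of the genes around let-7 on the list, 15 were analysed, and in CDH2 shRNA 3 rose and 0 fell, where 14.3% of all genes passed. DICER1, which cuts microRNA hairpins, was 5.83, 5.77 and 5.92 in scramble and 6.24, 6.45 and 6.22 in CDH2 shRNA libraries (0.46 ± 0.106, adjusted p = 0.0432). DROSHA, which makes the first cut, rose by 0.40 ± 0.0875 (adjusted p = 0.0405), and KHSRP, which binds the let-7 hairpin and aids its maturation, by 0.39 ± 0.0913 (adjusted p = 0.0462). Of the 15, 14 were above 0 with a median of 0.31 in CDH2 shRNA, and 12 with a median of 0.10 in Cx43 shRNA, where 0 passed and HMGA1 and KHSRP, with the highest values, were at 0.06 (adjusted p = 0.879) and 0.18 (adjusted p = 0.378).

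These lists were read beside transcript length, which moved with CDH2 shRNA over all genes. In CDH2 shRNA versus scramble the median log2 fold change was -0.21 for the 25% of genes with the shortest transcripts and 0.20 for the 25% with the longest (Spearman rho of 0.50 across 11888 genes, which are not independent). In Cx43 shRNA the same medians were -0.02 and 0.07 (rho of 0.13). After removal of the relation to length and GC content, the let-7 list median in CDH2 shRNA was 0.14 over 13 genes with a length, and KHSRP alone of them passed.

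Differentiation genes were examined last, as stem cells and their progeny differ in them. All 7 luminal genes analysed were below 0 in CDH2 shRNA, with a median of -0.36, and 2 of them fell. CLDN7, a tight junction protein, was 2.98, 2.90 and 3.05 in scramble, 2.25, 2.17 and 2.10 in CDH2 shRNA and 2.44 and 2.61 in Cx43 shRNA libraries (-0.80 ± 0.0956 in CDH2 shRNA, adjusted p = 0.0198). EPCAM, given above, was the other. In Cx43 shRNA 0 of 7 passed, and KRT18 and KRT8, the keratins of simple epithelium, were at -0.06 (adjusted p = 0.881) and -0.20 (adjusted p = 0.432). After removal of length and GC content, the luminal median in CDH2 shRNA was -0.14 and EPCAM alone passed. Of 8 basal genes analysed, 0 passed in either knockdown. LAMB3, a laminin chain, and DSP, which anchors keratins to desmosomes, had the highest values and were at 0.12 (adjusted p = 0.442) and 0.56 (adjusted p = 0.0817) in CDH2 shRNA. KRT17, a basal keratin singled out after its values were seen, had a mean of 3.73 ± 0.441 (SD, n = 3) in scramble, 2.74 ± 0.378 (n = 3) in CDH2 shRNA and 1.87 ± 0.294 (n = 2) in Cx43 shRNA libraries on the log2(CPM + 1) scale. All 5 knockdown values were below scramble. The difference from scramble was -0.99 (adjusted p = 0.0752) in CDH2 shRNA and -1.86 (adjusted p = 0.0734) in Cx43 shRNA, and with length and GC content removed it passed in Cx43 shRNA.

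**Figure D4:**
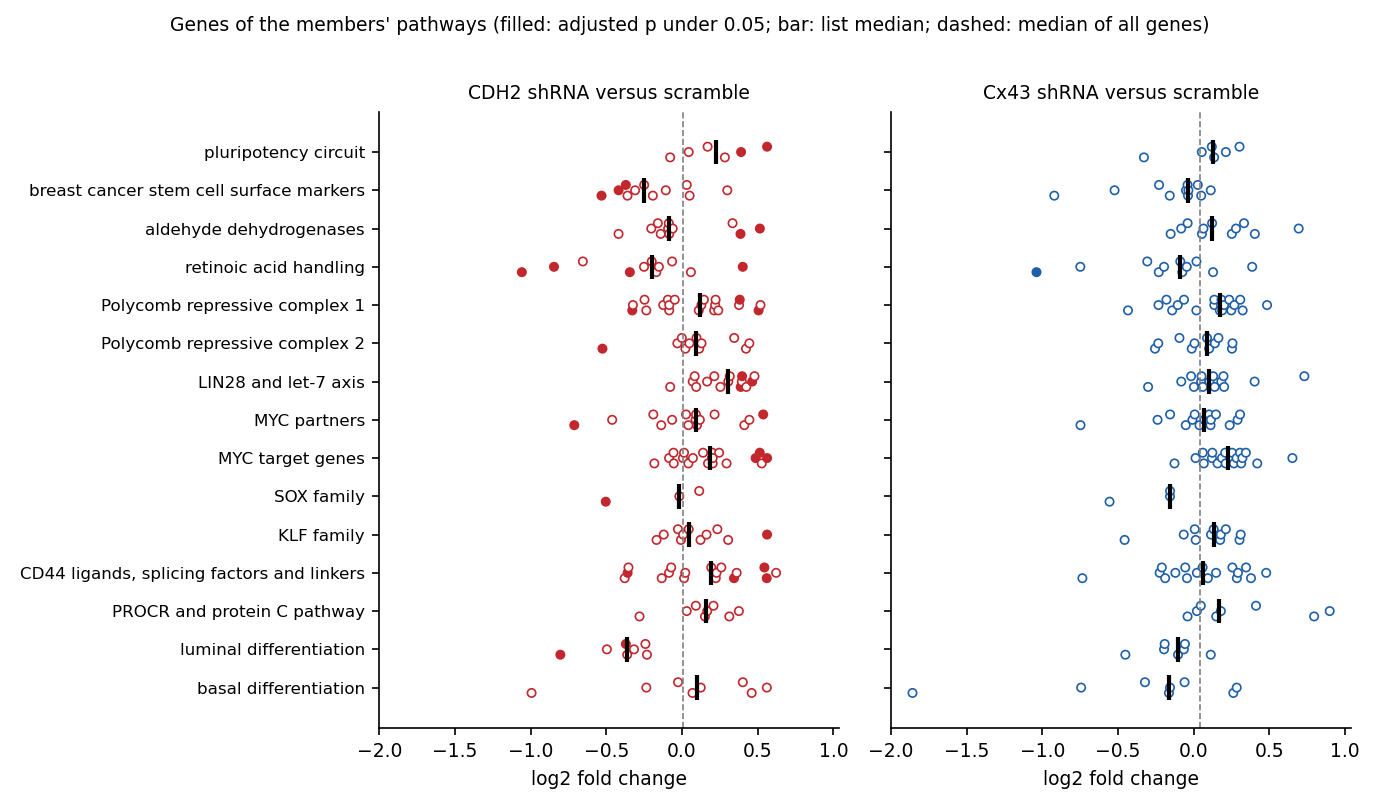
Log2 fold change of every analysed gene in the lists around the stemness genes, for CDH2 shRNA and Cx43 shRNA versus scramble, with filled points for adjusted p under 0.05, a black bar at each list's median and a dashed line at the median of all genes. RARRES3 at -1.06 and STRA6 at -0.85 are the lowest filled points in CDH2 shRNA, and STRA6 at -1.04 is the only filled point in Cx43 shRNA.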

How the data were processed

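The 8 libraries of total RNA, depleted of ribosomal RNA, were read as 1 table of 12939 genes, and 1 row without a gene name was left out. According to the methods, the authors aligned reads to hg38 with STAR (2.6.1 in the submitters' processing notes), quantified genes by expectation maximization, dropped a low-quality sample, took log2 values of CPM + 1, removed the batch effect among sequencing replicates and deposited genes with a maximum of at least 1.5. Base 2 was checked on the values, which sum to 684411 to 727083 CPM per library. They show no steps of single reads, so the depth is unknown and the number of libraries limits the precision.

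Groups and replicate numbers came from the sample titles. In each replicate number the libraries deviate from their group means by amounts that cancel (largest sum 1e-04), so the replicate numbers pair the libraries through the removed batch effect. The replicate number was therefore kept as a block in limma 3.58.1 (lmFit, eBayes, R 4.3.3), over all genes and all 8 libraries, with 3 residual and 2.84 prior degrees of freedom. The residuals vary in 2 of the 3 directions, since scramble 3 and CDH2 shRNA 3 mirror each other, and standard errors may be too small for that reason. Ranges, overlaps and SDs of the groups likewise describe values from which the batch effect had been removed. Nothing states that replicates are separate cultures, so p-values measure the spread between these samples. All p-values are two-sided with Benjamini-Hochberg adjustment, intervals are 95%, and no further pseudocount or filter was used.

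The members and the lists were chosen with earlier results of these data known. Named from each list were the genes with an adjusted p under 0.05 (at most 4 per comparison), or else the 1 or 2 with the highest mean. Positions and lengths are from GENCODE v44 (91.9% of genes matched by symbol). Alternatives were no block, quantile normalization, median centring, the 75% of genes with the highest mean, a pseudocount of 0.1, a mean-variance trend, only the compared groups, leaving out each library and, added after the values were seen, removal of the trend of each library with transcript length and GC content by loess.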

Additional observations from a re-analysis of the deposited data

How the results depend on the processing

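None of the 9 stemness genes passed in any comparison under quantile normalization, median centring, the filter on low values (which left 7 of them), a pseudocount of 0.1 or the mean-variance trend. With no replicate block the counts were 4 for CDH2 shRNA and 4 for Cx43 shRNA versus scramble and 3 between the knockdowns. With only the groups compared, 5 passed in Cx43 shRNA versus scramble (MYC, BMI1, SOX4, SOX9 and ALDH1A3), where 21.7% of all genes passed, while in CDH2 shRNA versus scramble 0 of 12939 genes passed, against 1846, which ends every call in the lists for that comparison. With length and GC content removed, 1 passed in each comparison with scramble (SOX4 and MYC). Leaving out 1 library gave 0 to 2 in CDH2 shRNA versus scramble, 0 to 3 in Cx43 shRNA versus scramble and 0 to 2 between the knockdowns. The higher counts came without scramble replicate 3 or CDH2 shRNA replicate 3, where 41%, 16.5% and 16.5% of all genes passed in the 3 comparisons, and these 2 settings give the same fit. Also, 1 passed in each comparison with scramble without scramble replicate 2 (12.1% and 3.62% of all genes). Calls over all genes moved as well, from 0 to 5309 for CDH2 shRNA against 1846 with all libraries, from 0 to 2133 for Cx43 shRNA against 156 and from 0 to 2131 between the knockdowns against 0, so calls in the pathway lists move with single libraries.

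Some of the log2 fold changes changed sign, and these were not only the ones nearest 0. With all libraries, PROCR was at -0.1873, SOX4 at -0.1664 and KLF4 at 0.1658 between the knockdowns, and each changed sign. SOX9, at -0.08437 in that comparison, did not. With length and GC content removed, CDH2 shRNA versus scramble gave 0.1954 for POU5F1, -0.16 for CD44, -0.03736 for ALDH1A3 and 0.05946 for PROCR. PROCR in Cx43 shRNA versus scramble was -0.00186 under quantile normalization and -0.04335 with only the groups compared. Leaving out 1 library gave, in CDH2 shRNA versus scramble, -0.1135 to 0.01308 for POU5F1, -0.06097 to 0.1936 for KLF4, -0.0175 to 0.1134 for CD44 and -0.3253 to 0.02198 for PROCR. In Cx43 shRNA versus scramble it gave -0.1947 to 0.0136 for KLF4 and -0.1619 to 0.2644 for PROCR. Between the knockdowns it gave -0.00901 to 0.2664 for KLF4, -0.5338 to 0.2009 for SOX4 and -0.4005 to 0.02582 for PROCR. The cause of these changes was not tested. MYC, BMI1 and SOX9 against scramble kept their sign under every alternative run, as did SOX4.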
